A study of Mus musculus with 15 samples.

Results

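The genes that make cholesterol, control its synthesis and move or store it were followed in MPC5. This immortalised line derives from mouse podocytes, which cover the outer face of the kidney's filtration barrier. The 30 genes were chosen by symbol from what they are known to do, by a rule that uses no measured value but was set with earlier results of these data known, and all 30 were found among the 25012 genes of the RNA table. They comprised 8 enzymes of the mevalonate part of the pathway, 11 enzymes that turn its product into cholesterol, 4 genes that control the transcription factor SREBP2, and 7 genes of sterol transport, storage and efflux. Of the 30 genes 28 reached a mean level of at least 1 FPKM (fragments scaled to transcript length and library size), as did 11591 genes in all, and Abca1 and Abcg1 did not.

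Cells build cholesterol from acetyl-CoA through mevalonate and squalene in a chain of enzymes that mostly sit in the endoplasmic reticulum. When sterols are scarce, SCAP carries SREBP2 from the endoplasmic reticulum to the Golgi, where proteases release the part that enters the nucleus and switches on genes of sterol synthesis and uptake. When sterols are plentiful, INSIG proteins hold SCAP and SREBP2 back, and the liver X receptors switch on efflux pumps. N6-methyladenosine (m6A), which the METTL3 enzyme writes, is a common internal mark of messenger RNA.

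The study compared 3 conditions of 5 samples each: MPC5 cells with sh-METTL3 virus and 25 µmol/L added glucose (unit as labelled, uncertain) for 72 hours, cells with the same virus in standard medium, and controls in standard medium without virus. Each condition comprised 2 input samples, 2 samples from the m6A pull-down (IP) and 1 RNA sample labelled as neither. There was no arm with glucose alone and no control virus, so the shRNA and the virus cannot be told apart, and all samples were of 1 cell line. RNA values came as 1 library per condition, so no difference in RNA has a replicate check or a p-value. Intervals of count ratios below are exact binomial 95% intervals that cover counting error only. Each pair of comparisons shares 1 library, so the 3 comparisons are not independent of each other.

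The 3 libraries held 52807701 counts with glucose, 53655982 with sh-METTL3 alone and 54282720 in the control. Mettl3 RNA, which the shRNA should lower, was at 2.49 FPKM in the library labelled sh-METTL3 with glucose, 2.42 FPKM in the library labelled sh-METTL3 and 2.34 FPKM in the control, so the label is not borne out at the RNA level. "The glucose library" and "the sh-METTL3 library" below name libraries by their labels. Podocyte markers, of which 8 of 10 were measured, summed to 161.5 FPKM with glucose, 164.2 FPKM with sh-METTL3 alone and 82.3 FPKM in the control, while the podocyte factor Wt1 was at 0.245 FPKM with glucose, 0.0423 FPKM with sh-METTL3 alone and 0.654 FPKM in the control. The 4 of 6 tubular markers measured summed to 87.7 FPKM with glucose, 171.8 FPKM with sh-METTL3 alone and 58.9 FPKM in the control, highest in the sh-METTL3 library. Leukocyte markers, 4 of 6 measured, summed to 10.8 FPKM with glucose, 11 FPKM with sh-METTL3 alone and 5.15 FPKM in the control, with the defining marker Ptprc at 0 counts with glucose, 7 with sh-METTL3 alone and 0 in the control. Endothelial, mesangial and hepatocyte or steroid-cell markers each summed to under 5 FPKM in every library. In bulk RNA, fewer cells of a type and less RNA per cell cannot be told apart, and the part of these marker differences in the results below was not tested.

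Enzymes of the mevalonate part were highest in the sh-METTL3 library in 8 of 8 cases. Hmgcs1, the cytosolic HMG-CoA synthase, was at 17.1 FPKM in the glucose library, 82.6 FPKM in the sh-METTL3 library and 41.2 FPKM in the control. Idi1, the isopentenyl diphosphate isomerase that interconverts the building blocks of prenyl chains, was at 3.66 FPKM with glucose, 19.9 FPKM with sh-METTL3 alone and 6.05 FPKM in the control. Fdps, farnesyl diphosphate synthase, was at 19.4 FPKM with glucose, 43.5 FPKM with sh-METTL3 alone and 29.2 FPKM in the control. For these enzymes the sh-METTL3 library was highest and the glucose library lowest, below the control as well.

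Acat2, which joins acetyl-CoA units in the cytosol, had its lowest level in the control instead. It was at 12.8 FPKM in the glucose library, 26.3 FPKM in the sh-METTL3 library and 8.82 FPKM in the control. Its neighbour Acat3, a closely similar gene in mouse, was at 2.08 FPKM with glucose, 4.67 FPKM with sh-METTL3 alone and 1.95 FPKM in the control, and the treatment of reads that fit both is not stated in the labels or headers. Mvk, mevalonate kinase, had the same order as Acat2, at 6.53 FPKM with glucose, 8.80 FPKM with sh-METTL3 alone and 3.90 FPKM in the control. The remaining mevalonate enzymes differed less between the glucose library and the control: Pmvk, phosphomevalonate kinase, was at 10.4 FPKM with glucose and 11.4 FPKM in the control, with 14.5 FPKM in the sh-METTL3 library. Mvd, the decarboxylase of the pathway, was at 9.13 FPKM with glucose, 18.2 FPKM with sh-METTL3 alone and 9.58 FPKM in the control. Ggps1, which makes the geranylgeranyl chain used to anchor proteins rather than to make sterol, was at 3.34 FPKM with glucose, 4.17 FPKM with sh-METTL3 alone and 3.50 FPKM in the control and varied least of the mevalonate enzymes. Ggps1 overlaps Arid4b by 257 bp on the opposite strand, and the use of strand in counting is not stated in the labels or headers. Arid4b had 1086 counts in the glucose library, 2797 in the sh-METTL3 library and 1076 in the control, highest in the same library as Ggps1.

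Sterol enzymes were highest in the sh-METTL3 library in 10 of 11 cases. Fdft1, squalene synthase and the first committed step towards sterol, was at 12 FPKM in the glucose library, 24.5 FPKM in the sh-METTL3 library and 10.7 FPKM in the control. Sqle, squalene epoxidase, was at 11.3 FPKM with glucose, 26.5 FPKM with sh-METTL3 alone and 10.2 FPKM in the control. Cyp51, which removes a methyl group from lanosterol, was at 13.2 FPKM with glucose, 42.2 FPKM with sh-METTL3 alone and 15.2 FPKM in the control, the highest of the sterol enzymes in the glucose and sh-METTL3 libraries. In all 3 genes the glucose library lay near the control and the sh-METTL3 library apart from both.

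The later demethylation steps did not all follow that order. Msmo1, a methylsterol oxidase, was at 9.29 FPKM in the glucose library, 29.0 FPKM in the sh-METTL3 library and 16.8 FPKM in the control, so that glucose was lowest. Nsdhl, the sterol dehydrogenase that acts with it, was at 9.82 FPKM with glucose, 18.4 FPKM with sh-METTL3 alone and 7.76 FPKM in the control. Hsd17b7, the ketosteroid reductase of the same complex, was at 3.34 FPKM with glucose, 4.07 FPKM with sh-METTL3 alone and 1.19 FPKM in the control, with the control lowest. Hsd17b7 was the enzyme furthest above the control in the glucose library, with 2.82 times the control's share of counts (2.55 to 3.13).

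Lss, lanosterol synthase, was at 2.75 FPKM in the glucose library, 6.66 FPKM in the sh-METTL3 library and 3.38 FPKM in the control. Dhcr7, the last enzyme of the branch that runs through lathosterol, was at 4.16 FPKM with glucose, 7.33 FPKM with sh-METTL3 alone and 3.23 FPKM in the control. Sc5d, the desaturase before it, was at 5.13 FPKM with glucose, 9.56 FPKM with sh-METTL3 alone and 6.21 FPKM in the control. Ebp, the sterol isomerase before Sc5d, was the exception to the order of the enzymes, at 8.67 FPKM in the glucose library, 8.15 FPKM in the sh-METTL3 library and 7.18 FPKM in the control. Its ratio of count shares for glucose over sh-METTL3 was 1.05, within an interval of 0.982 to 1.13 that spans 1, so the order of those libraries is not resolved. Tm7sf2, a sterol reductase, was the lowest of the enzymes in the glucose and sh-METTL3 libraries, at 1.11 FPKM with glucose, 1.88 FPKM with sh-METTL3 alone and 1.64 FPKM in the control. On the opposite strand Fdft1 overlaps Ctsb by 774 bp and Cyp51 overlaps Akap9 by 166 bp, and Tm7sf2 overlaps Vps51 by 9 bp on its own strand. Ctsb was the more abundant of that pair, with 29815 counts in the glucose library, 19893 in the sh-METTL3 library and 37987 in the control, lowest where Fdft1 was highest. Akap9 had 2429 counts with glucose, 5748 with sh-METTL3 alone and 2500 in the control. Vps51 had 2142 counts with glucose, 2889 with sh-METTL3 alone and 2206 in the control. Akap9 and Vps51 were thus highest in the sh-METTL3 library, as were Cyp51 and Tm7sf2. The part of these overlaps in the enzyme counts was not tested.

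**Figure D1:**
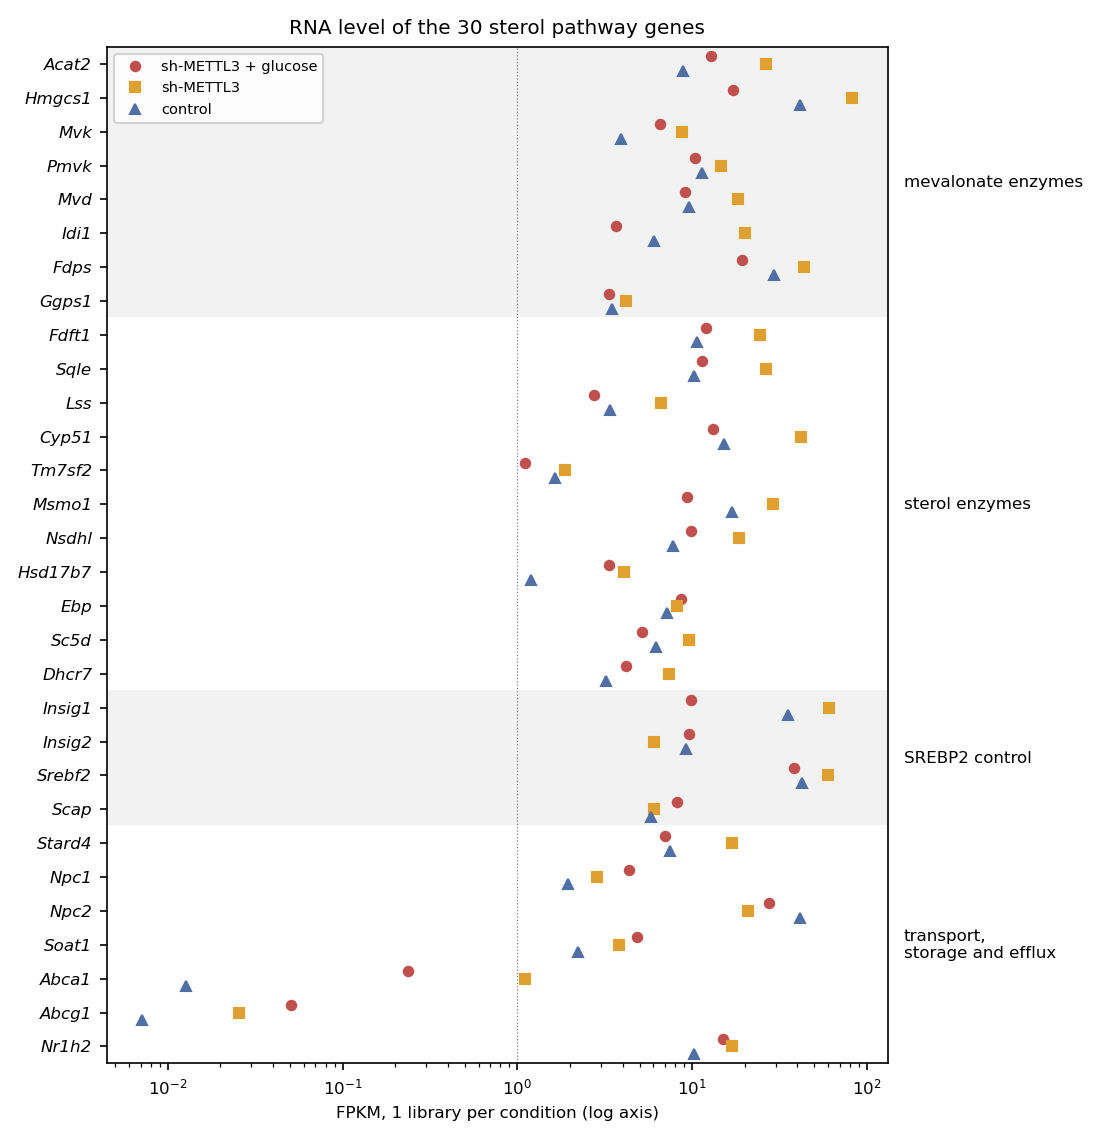
RNA level (FPKM, log axis) of the 30 genes in the 3 libraries, 1 point per library, with circles for sh-METTL3 with glucose, squares for sh-METTL3 and triangles for the control; the dotted line marks 1 FPKM. The square is furthest right for 18 of the 19 enzymes, with Ebp as the exception, while the genes of transport, storage and efflux have no common order.

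Taking the 19 enzymes as a group, their summed level was 163.2 FPKM in the glucose library, 396.2 FPKM in the sh-METTL3 library and 197.2 FPKM in the control. The sh-METTL3 library held the highest level for 18 of the 19 enzymes, against 33.9% of all genes tested. A gene was counted as higher or lower where the log2 ratio of (FPKM + 1) passed 1, a 2-fold difference. In the sh-METTL3 library over the control 7 of the 19 enzymes were higher and 0 lower, and 8 of the 28 genes tested were higher and 0 lower, beside 11.4% of all genes tested higher and 8.01% lower. The 7 enzymes were Acat2, Idi1, Fdft1, Sqle, Cyp51, Nsdhl and Hsd17b7, and the eighth gene was Stard4. The median enzyme lay 0.88 above the median gene on the log2 scale, and 19 of 19 enzymes lay above it. Just short of the threshold lay Hmgcs1 with a log2 ratio of (FPKM + 1) of 0.98 and a ratio of count shares of 2.04, Mvk with 1.00 and 2.29, and Dhcr7 with 0.98 and 2.31.

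In the glucose library over the sh-METTL3 library the enzymes lay the other way. Of the 19 enzymes 7 were lower and 0 higher, and of the 28 genes tested 9 were lower and 0 higher, beside 1.85% of all genes tested lower and 2.81% higher. The 7 enzymes were Hmgcs1, Idi1, Fdps, Sqle, Lss, Cyp51 and Msmo1, and the other genes were Insig1 and Stard4. The median enzyme lay at -0.98 relative to the median gene, and 18 of 19 lay below it. Counted from the lowest of the 11591 genes tested, Hmgcs1 ranked 20 and Idi1 21. Their ratios of count shares were 0.205 (0.199 to 0.210) for Hmgcs1 and 0.182 (0.171 to 0.195) for Idi1.

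In the glucose library over the control, 1 enzyme of 19 was lower and 0 were higher, and of the 28 genes tested 2 were lower and 0 higher, beside 3.68% of all genes tested lower and 8.25% higher. The enzyme was Hmgcs1, whose count share was 0.417 of the control's (0.405 to 0.429), and the other gene was Insig1. The median enzyme lay at -0.22 relative to the median gene, with 13 of 19 below it. The spread among the enzymes was wide in this comparison, with Hmgcs1 at -1.38 and Hsd17b7 at 0.83. All-gene medians, which are subtracted from such relative values, were 0.10 for sh-METTL3 over control, 0.16 for glucose over control and 0.06 for glucose over sh-METTL3.

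**Figure D2:**
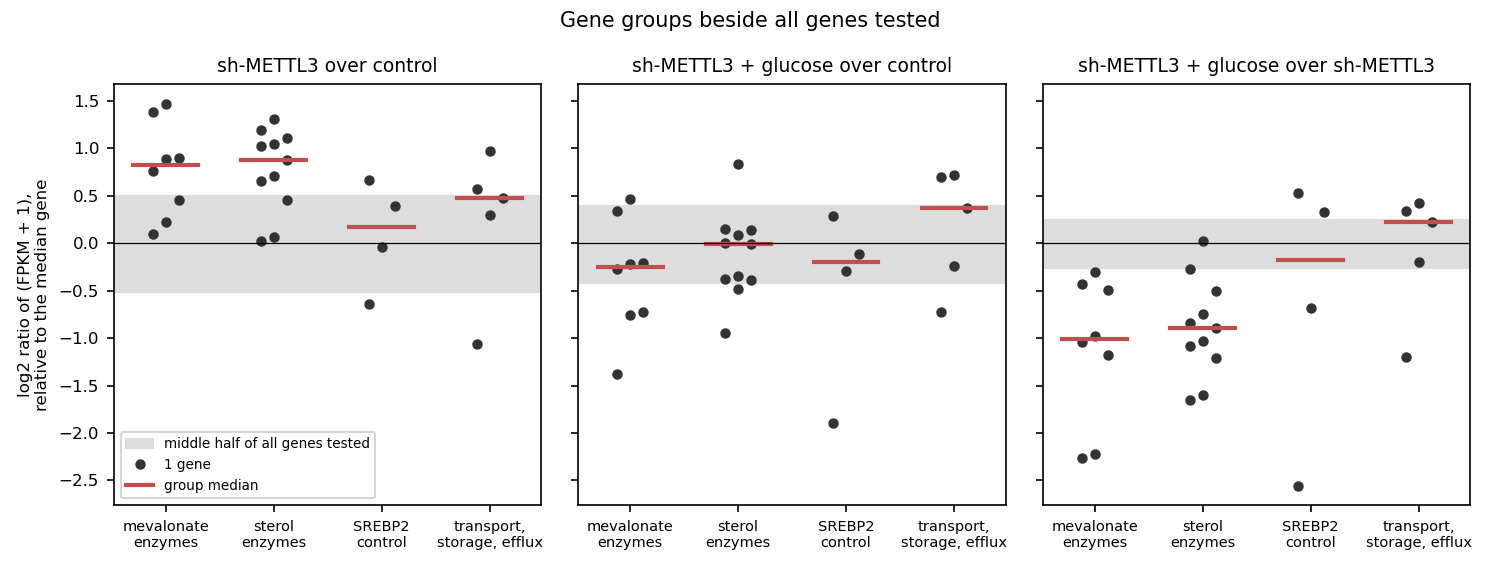
Log2 ratio of (FPKM + 1) relative to the median gene for the 28 genes tested, 1 point per gene, by group and comparison; red lines are group medians and the grey band holds the middle 50% of all 11591 genes tested. The mevalonate and sterol enzymes have medians of 0.82 and 0.88 in sh-METTL3 over control, -0.25 and -0.01 in glucose over control, and -1.01 and -0.90 in glucose over sh-METTL3.

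Ratios moved with gene length across all genes in the comparisons with the control. In the sh-METTL3 library over the control, the shortest of 10 equal length classes had a median of -0.70 relative to the median gene and the longest 0.45, and in the glucose library over the control these were -0.64 and 0.29. In the glucose library over the sh-METTL3 library they were 0.02 and -0.16. Set against genes of their own length class, the enzymes had medians of 0.89 in sh-METTL3 over control, -0.13 in glucose over control and -0.98 in glucose over sh-METTL3.

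Genes that control SREBP2 did not share an order. Insig1, which retains SCAP in the endoplasmic reticulum and is itself a target of SREBP2, was at 9.84 FPKM in the glucose library, 60.4 FPKM in the sh-METTL3 library and 35.1 FPKM in the control. Its ratio of count shares was 0.162 (0.155 to 0.169) for glucose over sh-METTL3, where it ranked 14 from the lowest of 11591 genes, 0.283 (0.270 to 0.296) for glucose over control and 1.75 (1.71 to 1.80) for sh-METTL3 over control. Insig1 followed the order of Hmgcs1 and Idi1, with the glucose library below the control.

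Insig2, which also retains SCAP and is not driven by SREBP2 in the way Insig1 is, had the reverse order between the libraries with the shRNA label. It was at 9.59 FPKM in the glucose library, 6.06 FPKM in the sh-METTL3 library and 9.27 FPKM in the control. The level of Insig1 over that of Insig2 was 1.03 in the glucose library, 9.96 in the sh-METTL3 library and 3.79 in the control. Srebf2, which encodes SREBP2, was at 38.4 FPKM with glucose, 59.8 FPKM with sh-METTL3 alone and 42.4 FPKM in the control, where its count share in the sh-METTL3 library was 1.44 times the control's (1.41 to 1.46). Scap was at 8.19 FPKM in the glucose library, 6.07 FPKM in the sh-METTL3 library and 5.78 FPKM in the control, and did not follow the enzymes.

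Promoters of Hmgcs1, Idi1 and Insig1 are shown because these genes had the lowest ratios of the 28 in the glucose library over the sh-METTL3 library. The sequences are the 250 bases before the start site that RefSeq gives in build GRCm38.p6, on the plus strand. The deposited gene table starts Insig1 and Idi1 inside this window, and Hmgcs1 shortly after it. Capitals mark CCAAT, the box that NF-Y binds, and TCACNCCAC or the CACNCCAC within it, forms of the sterol regulatory element that SREBP binds, on either strand.
Hmgcs1 (chr13:119690101-119690350): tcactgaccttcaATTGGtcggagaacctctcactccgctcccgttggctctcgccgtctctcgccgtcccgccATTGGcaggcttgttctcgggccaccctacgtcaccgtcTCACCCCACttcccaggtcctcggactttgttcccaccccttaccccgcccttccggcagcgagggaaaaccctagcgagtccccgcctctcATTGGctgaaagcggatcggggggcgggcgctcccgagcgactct
Idi1 (chr13:8885356-8885605): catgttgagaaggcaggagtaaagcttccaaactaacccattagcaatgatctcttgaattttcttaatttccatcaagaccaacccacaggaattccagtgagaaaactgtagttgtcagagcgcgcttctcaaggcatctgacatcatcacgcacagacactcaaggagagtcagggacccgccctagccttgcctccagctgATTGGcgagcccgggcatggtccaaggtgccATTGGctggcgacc
Insig1 (chr5:28071162-28071411): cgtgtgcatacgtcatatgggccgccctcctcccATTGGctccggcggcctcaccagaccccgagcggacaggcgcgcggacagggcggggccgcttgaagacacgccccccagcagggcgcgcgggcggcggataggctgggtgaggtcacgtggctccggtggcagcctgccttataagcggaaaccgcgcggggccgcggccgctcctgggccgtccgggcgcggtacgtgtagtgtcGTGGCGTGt

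In these windows Hmgcs1 held TCACCCCAC from -137 to -129 of the start site. Insig1 held GTGGCGTG, the CACNCCAC form on the minus strand, from -9 to -2. Every CCAAT match shown lies on the minus strand and reads ATTGG, at 3 places for Hmgcs1, 2 for Idi1 and 1 for Insig1. The deposited gene starts are chr13:8885501 for Idi1 and chr5:28071363 for Insig1. By these starts the CCAAT matches of Idi1 and the GTGGCGTG of Insig1 lie inside the gene rather than before it. RefSeq promoters of 250 bases before to 50 after the start were matched for 24 of the 30 genes, and those of Fdps, Fdft1, Sqle, Stard4, Npc1 and Abcg1 were not used here. The 24 genes had 30 such promoters. CCAAT was found in 20 of these 30 promoters, each of a different gene, against 37.4% of 32851 mouse promoters. CACNCCAC was found in 3 of the 30, those of Acat2, Hmgcs1 and Insig1, against 6.24% of all promoters. TCACNCCAC was found in 1 of the 30, that of Hmgcs1, against 1.24%. A match describes letters in the window and says nothing of binding, and the motif forms were chosen with the RNA values known.

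**Figure D3:**
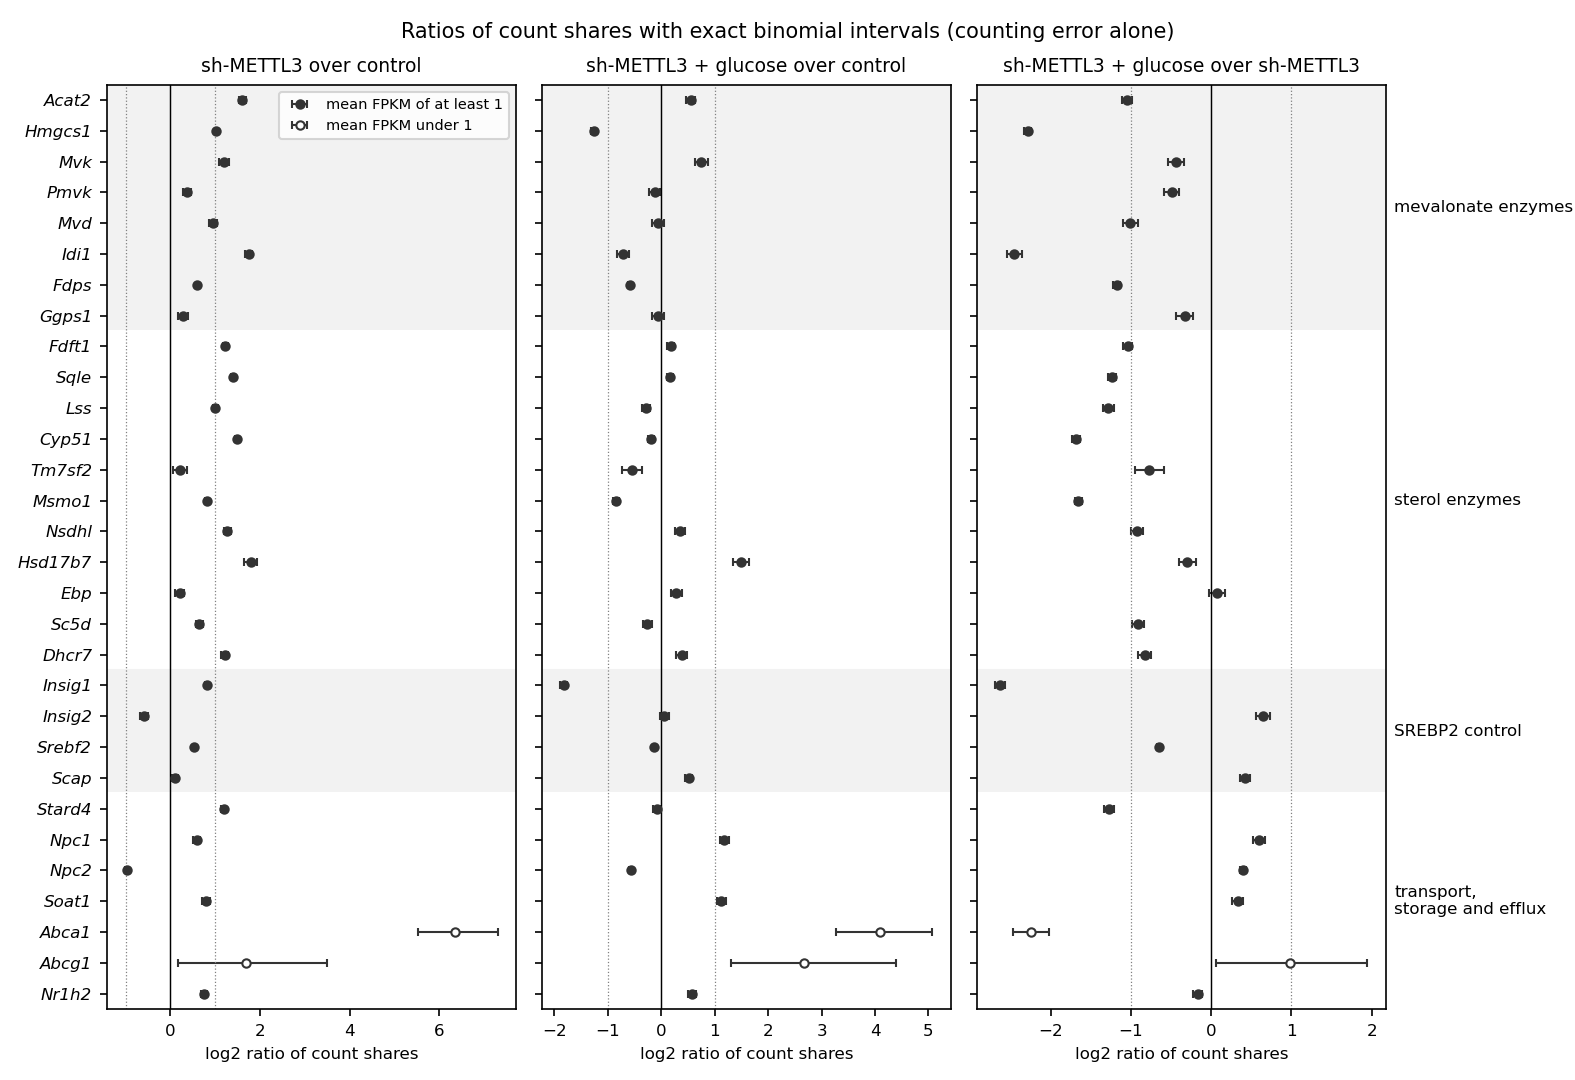
Log2 ratios of count shares for the 30 genes in the 3 comparisons; bars are exact binomial 95% intervals covering counting error only, filled points are genes with a mean of at least 1 FPKM, open points Abca1 and Abcg1, and dotted lines mark 2-fold. In glucose over sh-METTL3 the points of Insig1, Idi1 and Hmgcs1 are the furthest left among the filled points, at 0.162 for Insig1, 0.182 for Idi1 and 0.205 for Hmgcs1.

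Transport, storage and efflux genes varied in level without a common order. Stard4, a soluble carrier of sterol inside the cell and a target of SREBP2, followed the enzymes, at 7.02 FPKM in the glucose library, 16.8 FPKM in the sh-METTL3 library and 7.50 FPKM in the control. Its ratio of count shares was 2.28 (2.19 to 2.37) for sh-METTL3 over control and 0.414 (0.397 to 0.432) for glucose over sh-METTL3. On the log2 scale of (FPKM + 1) it was the transport gene past 2-fold in those comparisons, and none of the 5 tested passed it in glucose over control. For sh-METTL3 over control the call of Stard4 was lost with quantile normalisation, against genes of like length and with the threshold set relative to the median gene.

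Npc1 and Npc2 hand cholesterol out of the lysosome together, and their RNA levels ordered the libraries differently. Npc1, the membrane protein, was at 4.37 FPKM in the glucose library, 2.86 FPKM in the sh-METTL3 library and 1.94 FPKM in the control. Npc2, its soluble partner, was at 27.6 FPKM with glucose, 20.8 FPKM with sh-METTL3 alone and 41.4 FPKM in the control. The control was thus lowest for Npc1 and highest for Npc2, with ratios of count shares for glucose over control of 2.27 (2.14 to 2.39) for Npc1 and 0.672 (0.657 to 0.688) for Npc2. Npc1 overlaps Rmc1 by 967 bp on the opposite strand, where Rmc1 had 1995 counts in the glucose library, 1513 in the sh-METTL3 library and 1253 in the control.

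Soat1, which esterifies cholesterol for storage in droplets, was at 4.84 FPKM in the glucose library, 3.81 FPKM in the sh-METTL3 library and 2.23 FPKM in the control, the same order as Npc1. Nr1h2, the liver X receptor beta, was at 15.1 FPKM with glucose, 16.8 FPKM with sh-METTL3 alone and 10.2 FPKM in the control. Relative to the median gene the 5 genes tested had a median of 0.47 in sh-METTL3 over control, 0.37 in glucose over control and 0.22 in glucose over sh-METTL3. Over genes with a mean of at least 5 FPKM, which 3 of the 5 pass, the medians for glucose over control and glucose over sh-METTL3 turned to -0.12 and -0.22. Against genes of like length the median for sh-METTL3 over control was 0.023, and without a filter on low values that for glucose over sh-METTL3 was 0.030.

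Efflux pumps had low RNA levels. Abca1, which loads cholesterol onto apolipoprotein A-I, was at 0.237 FPKM in the glucose library, 1.11 FPKM in the sh-METTL3 library and 0.0128 FPKM in the control, from 200 counts with glucose, 961 with sh-METTL3 alone and 12 in the control. Its ratio of count shares for sh-METTL3 over control was 81.0 (46.2 to 157), the widest difference of the 30 genes, at a level that only in the sh-METTL3 library passed 1 FPKM. Abcg1, which passes cholesterol to HDL particles, had 31 counts in the glucose library, 16 in the sh-METTL3 library and 5 in the control. With so few counts its ratio for sh-METTL3 over control was 3.24, within an interval of 1.13 to 11.3.

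Further genes of the pathway gave the rest of the picture: of 42 listed, 40 were measured and 33 had a mean of at least 1 FPKM. In sh-METTL3 over control 9 of the 33 were at least 2-fold higher and 0 lower, beside 11.4% and 8.01% of all genes tested. In glucose over control 3 were higher, a share near the 8.25% of all genes, and 0 lower, beside 3.68%. In glucose over sh-METTL3 0 were higher and 4 lower, beside 2.81% and 1.85%. Their medians relative to the median gene were 0.34 in sh-METTL3 over control, 0.10 in glucose over control and -0.24 in glucose over sh-METTL3.

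Of the 33 further genes, 22 (66.7%) were highest in the sh-METTL3 library, beside 33.9% of all genes tested. Among those outside the synthesis chain the orders differed. Erlin2, a protein of the endoplasmic reticulum that takes part in protein degradation there, was at 13.7 FPKM in the glucose library, 15.7 FPKM in the sh-METTL3 library and 3.90 FPKM in the control. Nceh1, which hydrolyses cholesteryl esters, was at 7.00 FPKM with glucose, 9.26 FPKM with sh-METTL3 alone and 2.02 FPKM in the control. Both were past 2-fold in glucose over control. At the other end lay Gramd1a, a carrier of cholesterol from the plasma membrane, at 5.67 FPKM with glucose, 4.57 FPKM with sh-METTL3 alone and 9.31 FPKM in the control, and Scarb1, the HDL receptor, at 7.91 FPKM with glucose, 6.19 FPKM with sh-METTL3 alone and 9.93 FPKM in the control.

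Every one of the 30 genes had a listed m6A peak in at least 1 of the authors' 3 lists, and 21 had one in all 3. Listed peaks include some that do not pass an adjusted p under 0.05, and the single peak of Abcg1, in the sh-METTL3 list, is one of these. The lists, 1 per condition, set RNA pulled down with the antibody against input RNA, and each peak's fold enrichment is the authors' value for that list. The 30 genes held 63 peaks in the glucose list, 43 in the sh-METTL3 list and 46 in the control list, of which 55 in the glucose list, 38 in the sh-METTL3 list and 41 in the control list pass that threshold. A peak was listed for 26 of the 30 genes in the glucose list, 27 in the sh-METTL3 list and 26 in the control list, beside 78.6% of all genes tested in the glucose list, 72.2% in the sh-METTL3 list and 70.6% in the control list. Unlike the genes tested, the 30 include Abca1 and Abcg1, whose mean is under 1 FPKM. Abca1 counts among those with a peak in the sh-METTL3 and control lists, and Abcg1 in the sh-METTL3 list. In all, 27480 peaks are in the glucose list, 24626 in the sh-METTL3 list and 22498 in the control list. Annotated to 3′UTRs were 35 of 63 peaks in the glucose list (55.6%, beside 50.1% of all its peaks), 31 of 43 in the sh-METTL3 list (72.1%, beside 51.2%) and 30 of 46 in the control list (65.2%, beside 52.6%). A further 16 peaks in the glucose list were annotated to 5′UTRs (25.4%, beside 17.4% of all its peaks), as were 10 in the sh-METTL3 list (23.3%, beside 15.3%) and 11 in the control list (23.9%, beside 14.7%). In the glucose and control lists these counts include overlapping Tm7sf2 peaks that lie wholly or mostly before its deposited start. The 3′UTR counts include, in every list, a Scap peak past the deposited end of that gene. Of the 46 control peaks 39 (84.8%) shared 1 bp or more with a glucose peak of their gene and strand, beside 82.7% of all control peaks, and 30 (65.2%) with an sh-METTL3 peak, beside 83.9%. The median fold enrichment of the genes' peaks was 3.22 in the glucose list, 3.27 in the sh-METTL3 list and 3.06 in the control list, beside 4.81, 5.51 and 5.99 for all peaks of the glucose, sh-METTL3 and control lists.

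Among the enzymes, Sqle kept the same peak at its start in every list, chr15:59315077-59316006, annotated to the 5′UTR and at a fold enrichment above its other peaks in each list. Hmgcs1 had a 3′UTR peak at chr13:119706471-119706649 in the glucose list alone, with a fold enrichment of 2.07. In the control list it had 1 peak from its start through chr13:119700027, a span that includes introns. The peaks of Idi1 did not overlap between lists, with 1 in the 5′UTR in the glucose list, 0 in the sh-METTL3 list and 2 in the 3′UTR in the control list.

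SREBP2 control genes carried peaks in every list. Insig1, all of whose peaks were annotated to the 3′UTR, had peaks at chr5:28075160-28077859 and chr5:28077919-28078394 in the glucose list, at chr5:28077592-28077681 in the sh-METTL3 list and at chr5:28078157-28078305 in the control list. The Insig1 peaks of the last 2 lists do not overlap each other, and each overlaps a glucose peak. Insig2 held wide peaks annotated to the 5′UTR in each list, with fold enrichments up to 33.2 in the glucose list, 65.6 in the sh-METTL3 list and 12.2 in the control list. Those peaks span 12953 bp in the glucose list, 8217 bp in the sh-METTL3 list and 8005 bp in the control list, which includes introns. The authors' deposited tables of differential peaks hold no 5′UTR peak of Insig2 in any comparison. Srebf2 had 5 peaks in the glucose list, 1 in the sh-METTL3 list and 5 in the control list, and the one at its start was common to all 3.

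Among the transport genes, Stard4 had 1 peak in the glucose list, 2 in the sh-METTL3 list and 0 in the control list. Npc2 had 2 peaks in the glucose list and 0 in the others, Soat1 had 3 in the glucose list, 1 in the sh-METTL3 list and 0 in the control list, and Npc1 had 2 in each. Abca1 had 0 peaks in the glucose list, 2 in the sh-METTL3 list and 2 in the control list, and Nr1h2 had 4 in the glucose list, 1 in the sh-METTL3 list and 2 in the control list.

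**Figure D4:**
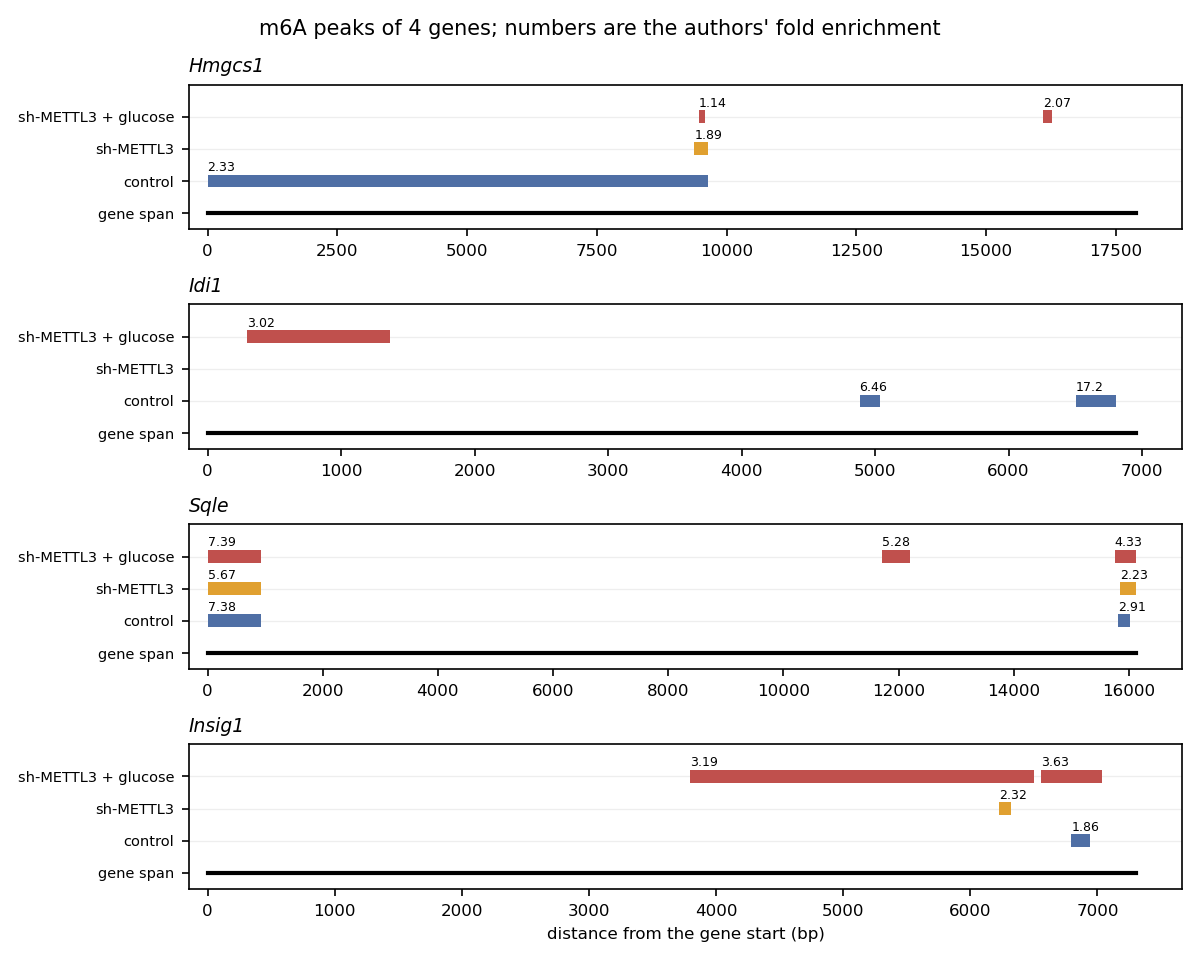
m6A peaks of Hmgcs1, Idi1, Sqle and Insig1 as bars along the distance from the gene start (bp), in rows for the glucose, sh-METTL3 and control lists, with the authors' fold enrichment at each bar and the gene span as a black line. The Sqle peak at the gene start is the same in the 3 rows, while no 2 rows share an Idi1 peak.

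The authors' deposited tables of differential peaks compare m6A between conditions, but neither their test nor their replicates are stated in the labels or headers. In the authors' deposited table of sh-METTL3 over control, at an adjusted p under 0.05, 4 of the 29 genes with a listed peak had a higher peak and 3 a lower one, beside 10.2% of all genes with a listed peak for higher and 3.63% for lower. The authors' deposited table gives Insig1 a log2 fold change of 1.17 at chr5:28077562-28077681 (adjusted p = 5.01e-12), and 3′UTR peaks 0.65 in Mvk, 0.45 in Dhcr7 and 0.38 in Pmvk. The lower peaks in the authors' deposited table were those of Idi1 at chr13:8890385-8890504, with a log2 fold change of -2.07 (adjusted p = 0.00437), Ggps1 at -0.79 and Hmgcs1 at -0.28. RNA of all 7 genes was at a higher FPKM in the sh-METTL3 library than in the control, whichever way the peak lay.

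In the authors' deposited table of glucose over control, 12 of the 29 genes had a higher peak and 3 a lower one, beside 21% of all genes for higher and 18.9% for lower. Hmgcs1 counts in both, since the authors' deposited table gives its 3′UTR peak at chr13:119706590-119706649 a log2 fold change of 1.69 (adjusted p = 9.12e-07) and its peaks further upstream, annotated to the 5′UTR, -0.93 and -0.80. The one at -0.93, chr13:119699669-119700027, spans the Hmgcs1 peaks that the sh-METTL3 and glucose lists annotate as exonic. Insig2 had 1.69 at chr1:121304982-121305221 in the authors' deposited table (adjusted p = 8.13e-10) and Insig1 1.57 at chr5:28077473-28077770 (adjusted p = 3.98e-88). For Insig1 the RNA level was lower in the glucose library than in the control, and for Insig2 it was nearly equal. The authors' deposited table also gives Nr1h2 1.48 and Stard4 1.10 in their 5′UTRs, Srebf2 up to 1.24 in an intron, Lss up to 0.92 and Npc2 0.75 in their 3′UTRs. Lower besides Hmgcs1 were Ggps1 at -1.10 and Mvd at -0.72 in the authors' deposited table.

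In the authors' deposited table of glucose over sh-METTL3, with the signs turned, 6 of 30 genes had a higher peak and 3 a lower one, beside 10% of all genes for higher and 12% for lower. Hmgcs1 again counts in both, with 1.29 in its 3′UTR at chr13:119706500-119706649 (adjusted p = 4.37e-06) and -0.66 in an exon at chr13:119699789-119699997 (adjusted p = 5.01e-11) in the authors' deposited table. This exon peak lies within the Hmgcs1 peak given -0.93 and annotated to the 5′UTR for glucose over control. The authors' deposited table gives Idi1 1.11 at chr13:8885950-8886835 (adjusted p = 0.0447), Sqle 0.80 in the 3′UTR and 0.30 in the 5′UTR, and Insig2 0.80 in the 3′UTR. Smaller values in the authors' deposited table were Srebf2 at 0.48 and Sc5d at 0.31, with Dhcr7 at -0.77 and Msmo1 at -0.23 on the lower side. Hmgcs1, Idi1 and Sqle, with higher peaks here, had at least 2-fold less RNA in the glucose library than in the sh-METTL3 library, and Insig2 had more. Srebf2 and Sc5d also had less RNA in the glucose library. So did Dhcr7 and Msmo1, with lower peaks, at ratios of count shares of 0.563 for Dhcr7 and 0.317 for Msmo1.

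**Figure D5:**
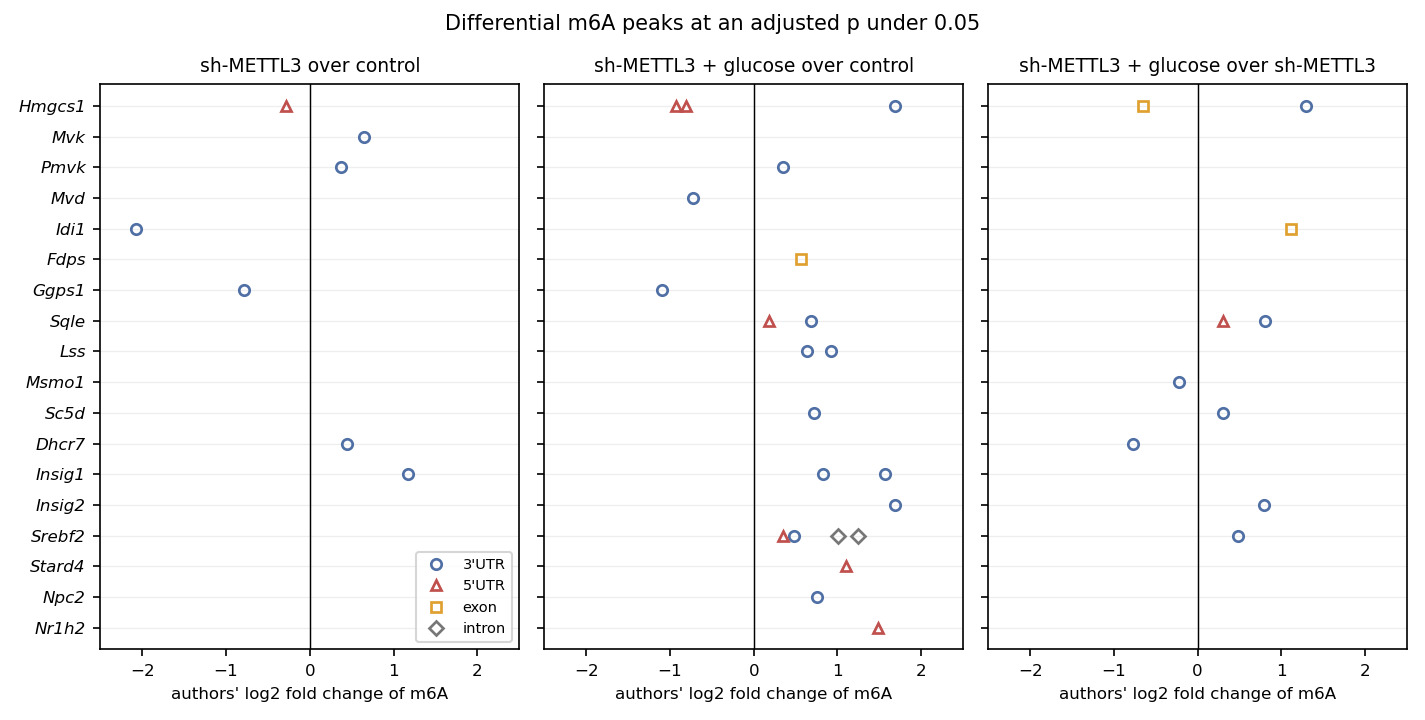
The authors' log2 fold change of m6A for each differential peak of the 30 genes at an adjusted p under 0.05, by gene and comparison; circles are 3′UTR, triangles 5′UTR, squares exon and diamonds intron peaks. The comparison of glucose over control holds the most points, 22 against 7 in sh-METTL3 over control and 10 in glucose over sh-METTL3, and Hmgcs1 has points on both sides of 0 in the comparisons with the glucose library.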

How the data were processed

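RNA and m6A pull-down were measured in 15 samples of the MPC5 line. The submitters' processing notes list HISAT2 2.0.4, HOMER 4.10, StringTie 2.1.2, fastp 0.19.4 and edgeR 4.1, with no step assigned to any, and the human build GRCh38, although the coordinates are those of mouse GRCm38. Per the labels' protocols, poly(A) RNA went into strand-marked libraries.

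Per the file headers, the deposited RNA table has an FPKM column and a raw count column for each condition. For every condition 1 deposited peak list gives a fold enrichment (the ratio of IP to input) and, as a score, log10 of p and of adjusted p. In the authors' differential peak tables each peak has a log2 fold change, its p-value and its adjusted p, and the p is always under 0.05. The sign was checked against the lists, where it was shared by 89.1% of peaks for sh-METTL3 over control, 88.5% for glucose over control and 87.1% for glucose over sh-METTL3. The table of glucose and sh-METTL3 was deposited the other way round, so its signs were turned. Peak starts had 1 added.

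With a single RNA column for each condition, the tests planned for replicates were replaced by ratios without a test. Log2 ratios of (FPKM + 1) were taken over genes with a mean of at least 1 FPKM, a 2-fold difference was counted without subtracting the all-gene median, and single values and medians have it subtracted. Ratios of count shares carry exact Clopper-Pearson intervals at 95%, from depths of 52807701 counts with glucose, 53655982 with sh-METTL3 alone and 54282720 in the control. All 30 genes are named. Of the further pathway genes, up to 3 highest and 3 lowest by ratio with a mean of at least 5 FPKM are named in each comparison, and the prenyl-branch genes were added after their values were seen. Some of the further genes are counted but not reported here by name. Peaks are given in full for up to 10 genes, by the size of the authors' log2 fold change among called peaks. The members, the lists of further genes and markers and the motifs were chosen with earlier results of these data known. The ratio procedure was tested on simulated libraries drawn from the control counts with counting error alone. That test holds no spread between cultures, so it cannot speak for it. Python 3.11.15, pandas 2.3.3, numpy 2.4.6, scipy 1.17.1 and matplotlib 3.10.9 were used.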

Additional observations from a re-analysis of the deposited data

How the results depend on the processing

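RNA values rest on 1 library per condition, and counting intervals do not cover spread between cultures. No paired analysis was possible because the table has 1 column per condition, and for the same reason the replicate block and leaving out replicates were not run. For sh-METTL3 over control the enzymes' median of 0.88 became 1.00 over genes with a mean of at least 5 FPKM and 0.97 without a filter. For glucose over control the enzymes' median of -0.22 became -0.087 without a filter and -0.13 against genes of like length. In that comparison 1 enzyme was higher, against 0, with a pseudocount of 0.1 or with median-of-ratios counts, and 2 were lower, against 1, with median-of-ratios counts or against genes of like length. For glucose over sh-METTL3 the median of -0.98 became -1.06 with median-of-ratios counts. The median of the SREBP2 control genes for sh-METTL3 over control turned to -0.16 against genes of like length. Over genes with a mean of at least 5 FPKM, which fewer genes pass, the median of the transport genes turned to -0.12 for glucose over control and -0.22 for glucose over sh-METTL3. With a pseudocount of 0.1, 2 transport genes were higher for glucose over control, against 0. For sh-METTL3 over control 1 transport gene was lower, against 0, with median-of-ratios counts, against genes of like length or with the threshold relative to the median gene, and in the last 2 settings and with quantile normalisation 0 were higher, against 1. At the stricter limits (4-fold enrichment, adjusted p under 0.001) the 30 genes kept 15 peaks in the glucose list (23.8%, beside 38.8% of all its peaks), 10 in the sh-METTL3 list (23.3%, beside 46.1%) and 14 in the control list (30.4%, beside 46.9%). With an adjusted p under 0.01 the authors' deposited tables held 2 higher peaks, against 4, for sh-METTL3 over control and 4, against 7, for glucose over sh-METTL3. Of the 28 genes tested, 24 had the same sign in every setting for sh-METTL3 over control (not Ggps1, Tm7sf2, Scap and Npc1), 23 for glucose over control (not Fdft1, Sqle, Dhcr7, Insig2 and Srebf2) and 27 for glucose over sh-METTL3 (not Ebp). Applying the threshold relative to the median gene was chosen after seeing the data, and gave 9 lower enzymes, against 7, for glucose over sh-METTL3. The cause of these shifts was not tested.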

Other observations

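Genes that use prenyl chains from the same pathway for other products had no common order. Fnta and Fntb, the farnesyltransferase subunits, were at 11.2 and 4.78 FPKM in the glucose library, 10.8 and 3.69 FPKM in the sh-METTL3 library and 14.0 and 6.13 FPKM in the control. Dhdds, the catalytic subunit of the enzyme that starts dolichol synthesis, was at 7.43 FPKM with glucose, 7.76 FPKM with sh-METTL3 alone and 3.41 FPKM in the control, while Nus1, its partner subunit, was at 9.26 FPKM with glucose, 10.1 FPKM with sh-METTL3 alone and 13.5 FPKM in the control. Pdss1, which makes the side chain of coenzyme Q, was at 1.62 FPKM with glucose, 1.36 FPKM with sh-METTL3 alone and 0.539 FPKM in the control, and Coq2, which attaches it, at 8.70 FPKM with glucose, 7.04 FPKM with sh-METTL3 alone and 9.14 FPKM in the control. Pggt1b, a subunit of the enzyme that attaches geranylgeranyl chains, was at 1.29 FPKM with glucose, 2.52 FPKM with sh-METTL3 alone and 1.83 FPKM in the control. Of these 7 genes, Dhdds and Pggt1b were highest in the sh-METTL3 library. For Dhdds the ratio of count shares for glucose over sh-METTL3 was 0.949, within an interval of 0.896 to 1.005 that spans 1. The order of those libraries is thus not resolved for Dhdds.

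Abca1 had 12 counts in the control RNA library, yet the control list gives it 2 peaks in its 3′UTR, at chr4:53033452-53035364 with a fold enrichment of 12.2 and at chr4:53032105-53032434 with 3.55. Of the 8950 genes with at most 12 counts in the control library, 820 (9.16%) had a control peak, and 81 had one at least as strong as that of Abca1. In the glucose library, with 200 counts, Abca1 had 0 peaks.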
